A study of Caenorhabditis elegans with 2 samples.

Results

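The 7 genes described here are R07E5.16, C28A5.7, F54D8.7, F54C8.8, F54C8.9, F54C8.10 and W05B2.8, the U6 small nuclear RNA (snRNA) genes of chromosome III of Caenorhabditis elegans. They were chosen by name, with the SNPC-4 peaks near them already known, so their peaks and signals are a description and were not tested. They are 7 of 46926 annotated genes, of 99 annotated snRNA genes without the spliced leader RNA genes, and of 23 U6 genes in the genome. A gene was counted as U6 when it was annotated as an snRNA gene and at least 80% identical to 1 of the 7, and the next most similar snRNA gene was 75.73% identical. All 7 U6 genes found on chromosome III are among the members, and the other 16 lie on chromosomes I, IV and V.

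Chromatin immunoprecipitation with sequencing (ChIP-seq) measured where SNPC-4 sits on the genome. The animals were whole young adult hermaphrodites of strain YL551, a transgenic line with a C-terminal GFP-FLAG tag on SNPC-4, collected 60 hours after synchronization as starved L1 larvae, and the immunoprecipitation used an anti-GFP antibody on sonicated chromatin. There was 1 group with 2 biological replicates and no second condition or untagged strain, so every comparison below sets genes against one another within the same animals. The input control was not analysed here, and the tissues of whole animals cannot be told apart.

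U6 is the snRNA at the catalytic centre of the spliceosome: it arrives paired with U4, is released, and then pairs with the 5′ splice site and with U2. Unlike the other spliceosomal snRNAs it is made by RNA polymerase III, from a promoter that lies upstream of the gene and holds a TATA box, and transcription ends in a run of T. SNPC-4 belongs to SNAPc, the snRNA-activating protein complex, and carries its Myb domain. SNAPc binds the proximal sequence element of snRNA promoters, which in U6 genes lies upstream of the TATA box.

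The 100 bases before the annotated 5′ end of each of the 7 genes are shown because the peaks fall on them, with those of 2 U6 genes of other chromosomes for comparison. All are 5′ to 3′ on the strand of the gene, from the RefSeq assembly WBcel235, which is build ce11. Capitals mark a hexamer at the place of the TATA box and the 4 bases that start 25 bases before it. The windows are chrIII:4414085-4414184 (+) for R07E5.16, chrIII:4426956-4427055 (-) for C28A5.7, chrIII:5080899-5080998 (-) for F54D8.7, chrIII:9445811-9445910 (+) for F54C8.8, chrIII:9447860-9447959 (-) for F54C8.9, chrIII:9449469-9449568 (+) for F54C8.10, chrIII:10989579-10989678 (+) for W05B2.8, chrV:858991-859090 (+) for K09C6.12 and chrIV:13443645-13443744 (+) for K09B11.16.
R07E5.16: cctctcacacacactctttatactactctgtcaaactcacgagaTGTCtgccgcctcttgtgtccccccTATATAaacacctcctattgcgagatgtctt
C28A5.7: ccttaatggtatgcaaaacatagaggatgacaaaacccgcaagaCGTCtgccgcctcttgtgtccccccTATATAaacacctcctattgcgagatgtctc
F54D8.7: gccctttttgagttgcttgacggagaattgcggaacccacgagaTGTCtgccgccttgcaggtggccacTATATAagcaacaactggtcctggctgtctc
F54C8.8: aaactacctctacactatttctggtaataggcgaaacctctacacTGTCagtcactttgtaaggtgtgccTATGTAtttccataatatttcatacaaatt
F54C8.9: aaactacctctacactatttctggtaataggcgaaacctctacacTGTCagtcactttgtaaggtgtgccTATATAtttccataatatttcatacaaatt
F54C8.10: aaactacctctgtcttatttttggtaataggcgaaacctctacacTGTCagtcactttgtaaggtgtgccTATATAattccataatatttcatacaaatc
W05B2.8: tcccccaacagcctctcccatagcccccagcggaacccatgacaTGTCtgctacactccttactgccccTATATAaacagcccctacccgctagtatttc
K09C6.12: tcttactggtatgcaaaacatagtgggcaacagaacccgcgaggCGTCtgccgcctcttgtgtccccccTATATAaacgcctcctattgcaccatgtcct
K09B11.16: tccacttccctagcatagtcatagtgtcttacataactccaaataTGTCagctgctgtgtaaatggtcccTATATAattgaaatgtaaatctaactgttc

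The genes themselves are nearly identical. C28A5.7, F54C8.8, F54C8.9 and W05B2.8 had no difference from R07E5.16 over 102 bases, and F54D8.7, annotated as 101 bases long, had none over its length. F54C8.10 differed from R07E5.16 at 1 base. The first 101 bases of R07E5.16 occur 17 times in the genome without a mismatch. A sequencing read from inside the gene can therefore come from many loci, and each peak below was read together with how much of the sequence under it is unique.

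The authors deposited regions with summits, the position of the strongest binding within a region, and a signal for each, which is the score of their peak caller. A thresholded list of 2950 summits is used for calling a gene bound. It was derived from both replicates and filtered for reproducibility, and how the filter compared them is not stated. Lists of 30000 candidate summits give each replicate's own signal. A gene was called bound when a thresholded summit lay within 250 bp of its annotated 5′ end. All 7 members were bound, which the choice of members fixes. Of all 99 snRNA genes 65.7% were bound, and of the 46890 annotated genes on the 6 nuclear chromosomes 4.40% were.

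Signals of the 7 genes ran over a wide range although the genes are nearly the same in sequence. To set the replicates on 1 scale, each signal was divided by that replicate's median at the nuclear thresholded peaks, 69.36 in replicate 1 and 77.08 in replicate 2, and is called the relative signal. The highest pooled signal, 9688 at W05B2.8, was 85.63 times the lowest, 113.1 at F54C8.8. The median member, C28A5.7, had a pooled signal of 1651, against a median of 140.2 over the 2926 nuclear thresholded summits. The 4 genes outside the F54C8 group had relative signals of 11.47 to 66.85, and the 3 F54C8 genes, which share 1 host gene, had 0.814 to 1.89.

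**Figure D1:**
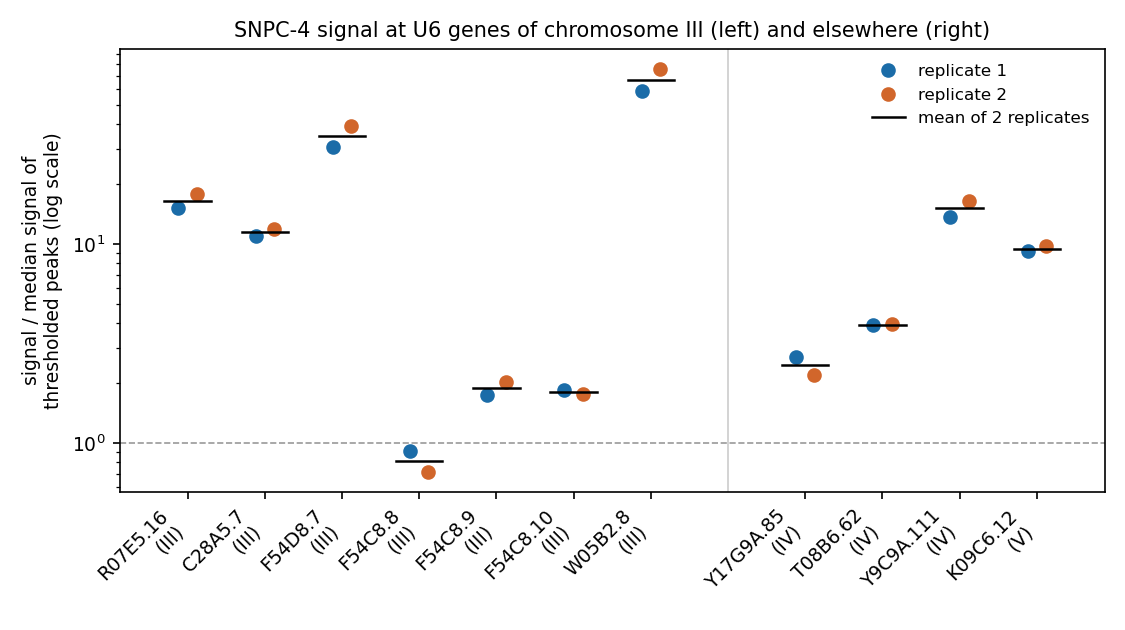
Relative signal (signal over the median of the thresholded peaks in the same replicate, log scale) of the 7 U6 genes of chromosome III, left of the grey line, and of the 4 bound U6 genes of other chromosomes, right of it. Points are replicates and bars their means; in both replicates the 3 F54C8 genes lie lowest among the 7, and F54C8.8 alone lies below the dashed line at 1.

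W05B2.8 (WBGene00014543, chrIII:10989679-10989780, +) had signals of 4052 in replicate 1 and 5803 in replicate 2, or 58.42 and 75.29 times the median peak. Its mean relative signal was 66.85 ± 11.93 (SD, n = 2), and it ranked 5 of the 2950 thresholded summits. The gene lies in a 360 bp intron of dhc-4, which encodes a dynein heavy chain, on the same strand. Its single summit was 28 bp upstream of the 5′ end in the pooled list and 30 and 28 bp upstream in replicates 1 and 2, in a region 907 bp wide. Every stretch of 36 bases over that summit (36-base word) occurs only once in the genome.

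Peaks with a 5′ end of another gene within 250 bp were compared with W05B2.8 by their relative signals in both replicates. A peak near several genes was named for a tRNA or snRNA gene before a protein-coding one. The 3 closest peaks were named for noncoding RNA genes. They were the peaks of rpr-1 on chromosome I, the RNA component of RNase P (pooled signal 9094), and of the spliced leader genes sls-2.4 (10573) and sls-2.1 (8868). Their relative signals in replicates 1 and 2 were 53.20 and 70.87 at rpr-1, 60.54 and 84.41 at sls-2.4, and 56.73 and 65.65 at sls-2.1. The likeness is over 2 replicates, with distances of 0.16 to 0.20 on the log2 scale.

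F54D8.7 (WBGene00195000, chrIII:5080798-5080898, -) had signals of 2118 in replicate 1 and 3023 in replicate 2, or 30.53 and 39.23 times the median peak. It ranked 32 in the thresholded list, with a pooled signal of 5051 in a region 916 bp wide. It is the only member between genes: alh-1, an aldehyde dehydrogenase gene, ends 136 bp to its left, and cox-6A, which encodes a subunit of cytochrome c oxidase, starts 827 bp to its right, both on the other strand. The summit was 58 bp upstream in the pooled list and 59 bp upstream in each replicate. Replicate 1 alone had a further summit in the region, 263 bp upstream and so just outside the 250 bp limit, with a signal of 571.1. All 36-base words in the 250 bp upstream of F54D8.7 are unique.

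R07E5.16 (WBGene00014484, chrIII:4414185-4414286, +) had signals of 1046 in replicate 1 and 1374 in replicate 2, or 15.08 and 17.82 times the median peak. It lies in a 718 bp intron of mpc-1, a mitochondrial pyruvate carrier gene on the same strand, and its 3′ end is 29 bp from the next exon. The summit was 54 bp upstream of the 5′ end in the pooled list and in both replicates. R07E5.16 differed from the other members of high signal by a second thresholded summit, in the same region as the first. It lay 160 bp downstream of the 5′ end of R07E5.16 and 59 bp past its 3′ end, within the next exon of mpc-1. That second summit had a pooled signal of 1265, against 2400.2 at the first, and both replicates had it, at 159 and 167 bp downstream. The first summit was 1.78 times as strong as the second in replicate 1 and 1.95 times in replicate 2. All 36-base words over the second summit are unique.

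C28A5.7 (WBGene00014266, chrIII:4426854-4426955, -) had signals of 763.1 in replicate 1 and 920.7 in replicate 2, or 11.00 and 11.94 times the median peak. Its 5′ end is 12770 bp from that of R07E5.16, and the pair point towards each other. C28A5.7 lies in an 843 bp intron of C28A5.6, on the same strand, and overlaps a noncoding RNA gene, C28A5.9, on the other strand. Its summit was 58 bp upstream in the pooled list and in replicate 1, and 71 bp upstream in replicate 2. The order of the 4 strong genes, W05B2.8, F54D8.7, R07E5.16 and C28A5.7, was the same in the pooled list and in each replicate. No 2 of the 4 overlapped in their replicate values.

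**Figure D2:**
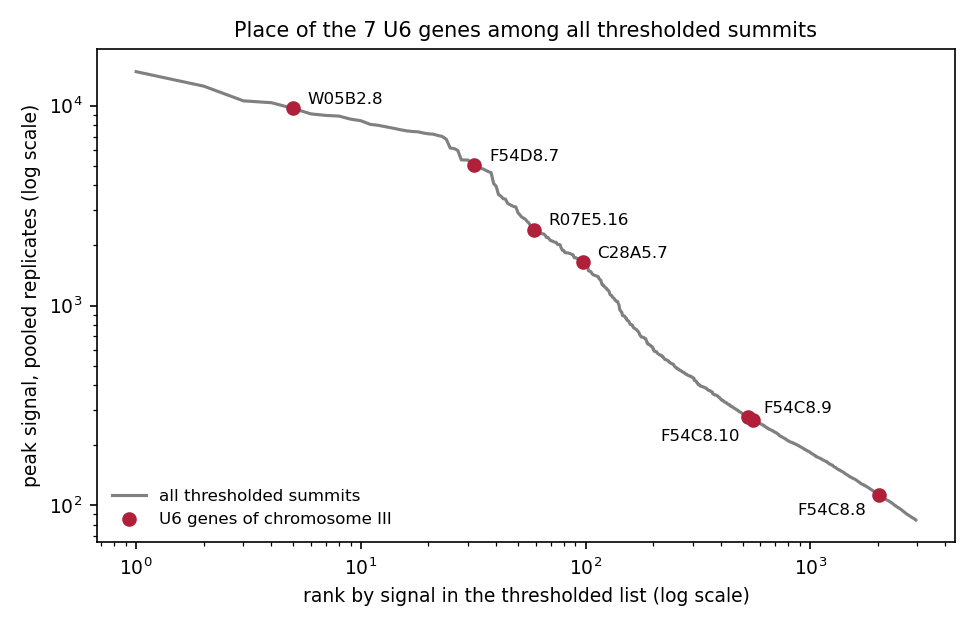
Pooled signal of every summit of the thresholded list against its rank (both log scales), with the strongest summit of each of the 7 U6 genes as a red point. W05B2.8, F54D8.7, R07E5.16 and C28A5.7 rank 5, 32, 59 and 97, and F54C8.9, F54C8.10 and F54C8.8 rank 531, 554 and 2017.

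The 3 F54C8 genes lie within 3760 bp in introns of F54C8.6, a gene on the minus strand. F54C8.8 (WBGene00014392, chrIII:9445911-9446012, +) and F54C8.10 (WBGene00014394, chrIII:9449569-9449670, +) are on the strand opposite to it. F54C8.9 (WBGene00014393, chrIII:9447758-9447859, -) is on the same strand as the host and overlaps the noncoding RNA gene F54C8.11 on the other strand. Their 5′ ends are 1948 and 1710 bp apart, in introns of 796 bp for F54C8.8, 1651 bp for F54C8.9 and 1412 bp for F54C8.10.

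F54C8.9 had signals of 121.2 in replicate 1 and 156.9 in replicate 2, or 1.75 and 2.04 times the median peak. F54C8.10 had signals of 127.7 in replicate 1 and 136.1 in replicate 2, or 1.84 and 1.77 times the median peak. These values overlap, and which of the pair was higher changed between the replicates. F54C8.8 was the weakest member, with signals of 62.94 in replicate 1 and 55.47 in replicate 2, or 0.907 and 0.720 times the median peak. In each replicate the lowest of the 4 strong genes, 11.00 in replicate 1 and 11.94 in replicate 2, lay above the highest F54C8 gene, 1.84 in replicate 1 and 2.04 in replicate 2. In the pooled list, C28A5.7 was 5.95 times as strong as F54C8.9.

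By the same rule, which prefers tRNA and snRNA genes in naming, the peaks closest to F54C8.8 in relative signal were named for tRNA genes. They were at C06G1.t4 (pooled signal 84.43), C09B9.t1 (106.4) and K01A12.t2 (91.52), at 0.021 to 0.037 on the log2 scale from F54C8.8. The share of all peaks of such signal that are named for tRNA genes was not counted, so these names are no measure of likeness in kind. F54C8.8 is also the only member outside the stronger 1475 of the 2950 thresholded summits. The lowest signal in the thresholded list was 84.43, so F54C8.8 was still above the limit of that list, and its region of 456 bp has the width shared by 54.9% of the thresholded summits.

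Repeated sequence lay under the strongest thresholded summits of 2 of the 3 F54C8 genes. The regions of all 7 members overlap the gene itself. There, 13.4% of 36-base words are unique at F54C8.10 and 0% at each other member. None of the 36-base words over the strongest thresholded summit of F54C8.8 or of F54C8.9 is unique in the genome, against 88.9% at F54C8.10 and 94.4% to 100% at the 4 strong genes. In the 250 bp upstream, 55.3% of such words are unique at F54C8.8 and 54% at F54C8.9, against 90.7% at F54C8.10 and 91.2% to 100% at the 4 strong genes. With 50-base words the shares over the summit were 28.0% at F54C8.8, 0% at F54C8.9 and 92.0% at F54C8.10. No source used here states the read length or what was done with reads that match several places, and the part of repeated sequence in the low signals and the summit places of F54C8.8 and F54C8.9 was not tested. The pooled signals of these 3 genes were 113.1 at F54C8.8, 277.4 at F54C8.9 and 267.6 at F54C8.10.

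The place of the strongest summit varied more between lists at F54C8.8 and F54C8.9 than at the other members. Over the pooled list and both replicates, the strongest summit moved by 0 bp at R07E5.16, 1 bp at F54D8.7, 2 bp at W05B2.8, 3 bp at F54C8.10 and 13 bp at C28A5.7. At F54C8.8 it moved by 24 bp, at 79 bp downstream of the 5′ end in the pooled list and 73 and 97 bp downstream in replicates 1 and 2, all within the gene. At F54C8.9 it moved by 81 bp, at 29 bp downstream in the pooled list, 52 bp upstream in replicate 1 and 7 bp upstream in replicate 2. F54C8.9 also had a second thresholded summit 170 bp upstream, with a pooled signal of 228.2, where all 36-base words are unique. The 2 regions of F54C8.9 are separated by a gap of 37 bp. Replicate 2 placed this second summit 212 bp upstream, with a signal of 91.25, and replicate 1 placed one 254 bp upstream, just outside the 250 bp limit, with a signal of 42.07. The place of this second summit also varied between lists. The sequence under it is unique in the pooled list and in replicate 2, and was not counted in replicate 1. Why the place varied was not tested.

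**Figure D3:**
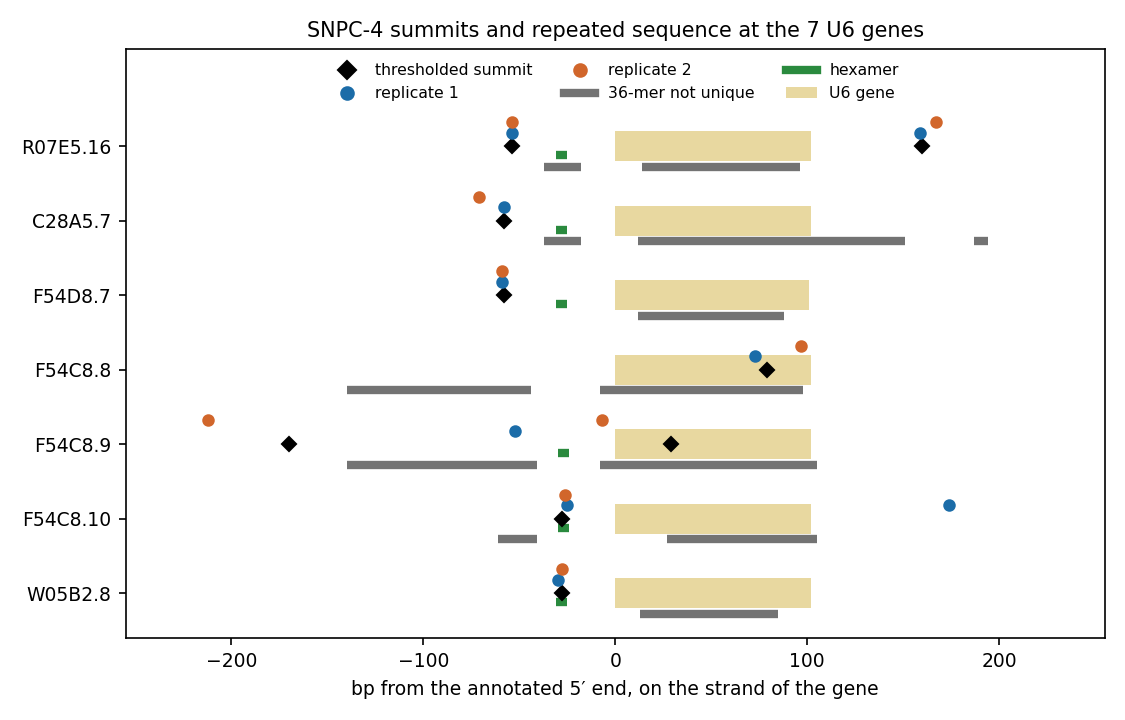
Summits around each of the 7 U6 genes, in bp from the annotated 5′ end on the strand of the gene (negative is upstream). Diamonds are thresholded summits, blue and orange points candidate summits of replicates 1 and 2, tan bars the gene, green bars the hexamer of the printed sequences where it reads TATATA, and grey bars 36-base words that occur more than once in the genome; the thresholded summit of F54C8.8 and the stronger one of F54C8.9 lie on grey bars, and the upstream summits of F54C8.9 at -170 and -212 bp lie away from them.

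In 5 of the 7 genes the strongest thresholded summit was upstream of the 5′ end, and the median was 28 bp upstream. The exceptions were F54C8.8 and F54C8.9, whose summits lay in the gene. Against the marked letters of the printed sequences, the summits of W05B2.8 and F54C8.10 fell inside the hexamer, that of R07E5.16 inside the marked 4 bases, and those of C28A5.7 and F54D8.7 2 bp upstream of those 4 bases. Among the 54 bound snRNA genes that are not U6, the median summit was 43 bp upstream and the median pooled signal 679.0.

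Among the 7 genes alone, upstream sequence made the same split as their location did. Over the 100 bases before the 5′ end the F54C8 genes were 94.67% identical on average (92 to 99% in 3 pairs), and the other 4 were 54.83% identical (45 to 71% in 6 pairs). R07E5.16 and C28A5.7 were the closest of these 4, at 71% over 100 bases and 98% over the nearest 50. Between the F54C8 genes and the other 4 the mean was 26.58% when windows were aligned at the 5′ end. Because the hexamer starts 31 bp upstream in the 4 strong genes and 30 bp upstream in F54C8.9 and F54C8.10, the windows were also aligned on it, and the mean was then 40.67% (38 to 44% in 12 pairs). The likeness among F54C8 genes ends abruptly: in the 50 bases beyond this window they were 92 to 100% identical, and in the 50 bases beyond those 34 to 64%.

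**Figure D4:**
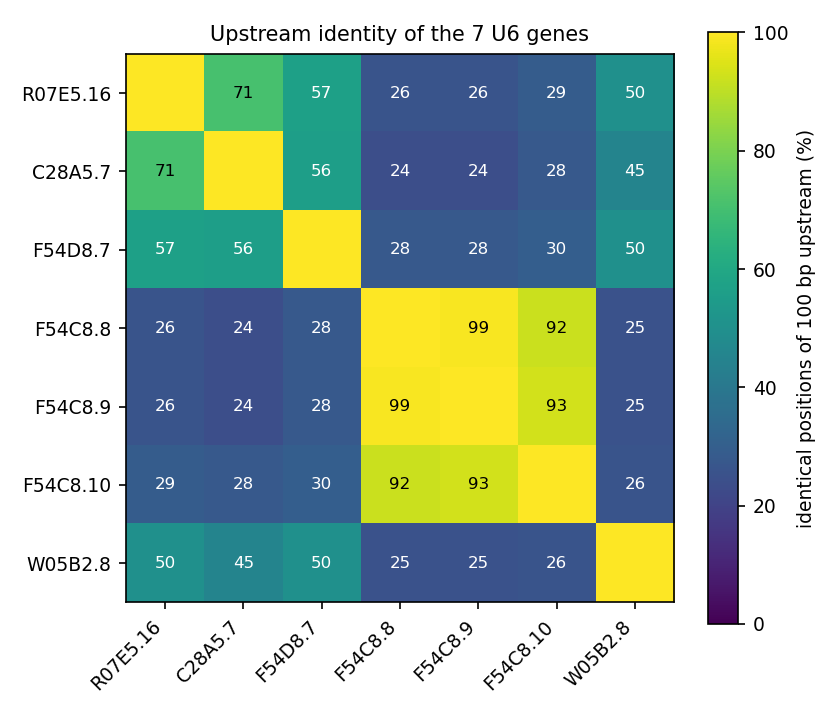
Identical positions in the 100 bases upstream of the 5′ end for each pair of the 7 U6 genes, in percent, aligned at the 5′ end without gaps. The F54C8 genes form a block of 92 to 99%, R07E5.16 and C28A5.7 reach 71%, and pairs across the 2 groups lie at 24 to 30%.

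With the windows aligned on the hexamer, 15 of 100 positions held the same base in all 7 genes. Of these, 14 lay in the 51 positions from 45 bases before the hexamer to its end. They include the runs AAC, starting 36 bases before the hexamer, and GTC, starting 24 bases before it. The run CTAT starts 1 base before the hexamer and runs into it. Shared bases inside the hexamer follow from the alignment on it, in which F54C8.8, without TATATA, was placed like F54C8.9. The marked 4 bases read TGTC in 6 of the 7 genes, the exception being C28A5.7 with CGTC, and in 8 of the 10 other U6 genes that have the hexamer. No gene of the 7 held CTGTTTCA, the upstream motif known from worm piRNA genes, within 100 bp on either strand, while 0.816% of 19971 protein-coding genes did.

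TATATA, which reads the same on both strands, lay within 40 bp upstream in 6 of the 7 genes and in 10 of the 16 other U6 genes. It was in 3.95% of the 76 snRNA genes that are not U6, 0.817% of 612 tRNA genes and 2.57% of the protein-coding genes. F54C8.8, the weakest member, was the 1 without it, reading TATGTA there. TATAA, which occurs wherever TATATA is followed by another A, lay on the gene strand in 5 of the 7 genes (71.4%), against 11 of the 16 other U6 genes (68.8%) and 10.2% of protein-coding genes.

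F54C8.8 and F54C8.9 differ by that base alone in the 100 bases upstream. Counting from 1 at the base 100 bp before the 5′ end, the change from F54C8.8 to F54C8.9 is G74A. The pooled signals were 113.1 at F54C8.8 and 277.4 at F54C8.9, in both replicates lower at F54C8.8. From F54C8.9 to F54C8.10 there are 7 changes, A12G, C13T, A14C, C15T, C21T, T77A and T100C, 1 of them directly after the hexamer and 5 at the far end of the window, and their signals overlapped. The part of these bases in the signals was not tested. The T run at the 3′ end of the annotated gene was 5 bases at W05B2.8, 8 at F54D8.7 and 6 at the others.

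Outside chromosome III, 4 of the 16 U6 genes were bound, 3 of 13 on chromosome IV, 1 of 2 on chromosome V and 0 of 1 on chromosome I. Since the 7 genes were picked with their peaks known, their 7 of 7 is not a test against these. Relative signals in replicates 1 and 2 were 13.70 and 16.51 at Y9C9A.111, 9.23 and 9.73 at K09C6.12, 3.93 and 3.95 at T08B6.62, and 2.72 and 2.20 at Y17G9A.85. Y9C9A.111 lay within the range of the 4 strong genes of chromosome III, and the others lay between those genes and the F54C8 genes. Their strongest summits were all upstream, at a median of 44 bp, and their median pooled signal was 960.7. Y9C9A.111 and K09C6.12 each had 2 thresholded summits within 250 bp, as R07E5.16 did. K09C6.12 on chromosome V is 85% identical to C28A5.7 over the 100 upstream bases, and their relative signals averaged 11.47 ± 0.67 at C28A5.7 and 9.48 ± 0.36 at K09C6.12 (SD, n = 2 each). The 50 bases after the gene are 100% identical in this pair. Y17G9A.85 and Y17G9A.90 are also 85% identical over the 100 upstream bases, and only Y17G9A.85 was bound.

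Of the 12 U6 genes with no thresholded summit, 7 are identical to a member in the gene itself, and 6 of the 12 have TATATA upstream. Those 6 are the K09B11 genes of chromosome IV, of which 25.6% to 60.5% of the upstream 36-base words are unique. Like F54C8.9 and F54C8.10 they have the hexamer 30 bp upstream. The pooled candidate list held a summit within 250 bp of 9 of the 12, with signals of 15.70 to 66.56, all below the 84.43 at which the thresholded list ends. These are fewer than 9 summits. T20D3.12 and T20D3.13 shared the same one, as did K09B11.13 and K09B11.14, and K09B11.15 and K09B11.16. The share of all genes near a candidate summit was not counted, so 9 of 12 is no measure of weak binding. Y17G9A.90, which is identical to a member and has unique upstream sequence, reads no TATATA upstream and had a candidate signal of 17.02. It does hold TATAA starting 29 bp upstream, as W05B2.8 does, and TGTC starting 56 bp upstream. Its nearest 50 upstream bases are 88% identical to those of the bound Y17G9A.85. Whether unbound copies are transcribed was not measured.

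Genes of proteins that act with U6 or in its transcription were looked up in 2 lists. Of 12 genes for U6 snRNP and U4/U6 proteins and for U6 methylation, 2 had a thresholded summit within 500 bp of a 5′ end (16.7%), and 7.47% of all 19971 protein-coding genes did. They were lsm-7, of the LSm ring that binds the 3′ end of U6 (pooled signal 85.16), and snu-13, of the U4/U6 particle (109.4), and both summits lay nearer to another gene, dnc-1 for lsm-7 and M28.13 for snu-13. Of 12 annotated genes for RNA polymerase III initiation and SNAPc, 2 had one (16.7%): snpc-3.4 (141.7, 20 bp upstream) and snpc-4 (146.4, 237 bp upstream). At lsm-7 the relative signals were 0.245 in replicate 1 and 0.771 in replicate 2. At snpc-4 the replicates differed more, with relative signals of 0.144 in replicate 1 and 1.32 in replicate 2. The labels read here do not settle whether the tag was put into this gene or into a further copy, so what the signal at the snpc-4 locus stands for is not known. All 4 had lower pooled signals than 6 of the 7 U6 genes of chromosome III, the exception being F54C8.8.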

How the data were processed

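SNPC-4 ChIP-seq of 2 biological replicates of 1 group was analysed from the ce11 region lists. Signal, as deposited by the authors, is a score from their peak caller, on a scale that moves with depth; the aligner, the caller and the reproducibility threshold were not given in the labels or headers read. The deposited -log10 q-values were 3.90 at all 2950 thresholded summits and so ranked none of them. The other deposited value places the summit, counted by the authors from where the region starts. Positions were converted to 1-based coordinates. No read counts were used, so depth and counting error are unknown.

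Gene models and genome sequence were those of RefSeq for WBcel235. Per gene, the strongest summit within 250 bp of the 5′ end was taken in each list. Relative signal was the replicate's signal over its median at the nuclear thresholded peaks. U6 genes were found by global alignment at 80% identity or more. Uniqueness counted exact 36-base and 50-base words over the whole genome, on both strands. Named genes were the 7 members, their hosts and nearest neighbours, the other U6 genes, and list genes with a summit. Not all neighbours are printed. Also named were the 3 peaks within 250 bp of another gene's 5′ end nearest in log2 relative signal to the strongest and weakest member. Of the 13 genes listed for RNA polymerase III and SNAPc, 12 were matched in the annotation. The members and lists were chosen with earlier results of these data known. No test was made. The sequence of the U6 gene itself is not reported here. Python 3.11.15, numpy 2.4.6 and Biopython 1.88 were used. The finding of summits near genes and the identity of aligned sequences were checked on simulated data, and the other steps were not. The alternatives were other distances, other scalings, other windows, other motifs, and each replicate left out.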

Additional observations from a re-analysis of the deposited data

How the results depend on the processing

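Of 34 alternatives to 7 results, 27 left the value or count close to the one reported, and 7 moved it further. Relative signal and offset were judged by the spread between replicates, and upstream identity by an interval that treats positions of all pairs as independent. Counts had a loose fold limit, under which 6 bound genes for 7, and 1.00 summits per gene for 1.29, stayed close. The relative signal with 1 replicate left out could hardly move, since the same 2 values set that spread. The number of bound members could not fall at 500 bp. All 7 genes stayed bound at 100 and 500 bp and in either replicate alone, and 6 in the stronger 1475 summits, without F54C8.8. The median relative signal of the members, 11.47, was 49.29 when divided by the median of the whole candidate list, 16.45 without F54C8.8 and F54C8.9, whose summits lie on repeated sequence, and 11.00 to 11.94 with 1 replicate left out. The median summit offset, -28 bp, was -54 bp without those 2 genes, and -52 to -28 bp with 1 replicate left out. Without replicate 2 it was -52 bp, since F54C8.9 then lies at -52 bp. Mean upstream identity, 44.38%, was 38.71% over 200 bp and 52.43% with windows aligned on the hexamer. With TATAAA in place of TATAA, 3 genes had the motif, against 5. The alternatives without the 2 genes, on the hexamer and with TATATA were chosen after seeing the data. The 4 bound U6 genes of other chromosomes stayed 4 in every alternative run on that count. With no read counts, no limit from depth can be given. No paired analysis was possible because there was 1 group and no test.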
